A study of Mus musculus with 6 samples.

Results

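The regions described here are stretches of distal chromatin that carried acetylation of histone H3 at lysine 27 (H3K27ac) in both treatments of the study and had no called peak of the nuclear receptor Rxra. They were chosen from measured values in 3 steps. A region of the CD list on chromosomes 1 to 19, X and Y had to overlap a region of the DMSO list by 1 bp or more, which left 14558 of 104437 regions (13.9% of the list). It had to lie outside the 1 kb windows around the starts and ends of all RefSeq protein-coding genes, which left 11997. It also had to overlap no peak of either Flag-Rxra list, which left 9642 regions, 9.23% of all CD regions, covering 4.37 Mb. These are called stable distal regions below, where stable means only that both lists hold an overlapping region.

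The study profiled OG2X129 mouse embryonic fibroblasts by CUT&Tag, in which an antibody steers a transposase to its target so that the released fragments mark the place. Chemical reprogramming, named in the labels, uses small molecules to turn somatic cells into pluripotent stem cells. H3K27ac was mapped in cells given CD (2 samples) and in cells given DMSO, the solvent control (2 samples), and a Flag antibody was used in cells that overexpressed Flag-tagged Rxra (2 samples). CD3254, which the title of the series gives, is a small molecule that activates retinoid X receptors. Each H3K27ac condition had 1 list for both of its samples, so no value below has a replicate error and no difference between CD and DMSO was tested. The Flag-Rxra samples had a list each. The labels give neither a day for any sample nor the treatment of the Flag-Rxra cells, so a region without a Flag-Rxra peak is one without a call in those overexpressing cells. The line carries the OG2 background, known for an Oct4-GFP reporter transgene, and the labels name 1 line only.

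H3K27ac is deposited by the acetyltransferases p300 and CBP and is found at active promoters and active enhancers. Enhancers are stretches of DNA, often far from a gene, where transcription factors bind and raise transcription of a gene they contact. In fibroblasts, factors of the AP-1, TEAD and RUNX families are known to occupy many distal enhancers. Rxra, the alpha form of the retinoid X receptor, pairs with partner receptors such as the retinoic acid, thyroid hormone, PPAR and LXR receptors and binds repeats of a short DNA element.

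Distance from coding gene ends does not exclude an internal or noncoding start, so the regions were set against RefSeq start windows, each reaching from 250 bases before a transcription start to 50 bases after it. The table held 32851 windows and none on chromosome 18, where 332 of the regions lie. Of the 9642 stable distal regions, 74 (0.767%, exact 95% binomial interval 0.603 to 0.963) overlapped 78 windows, where 25 regions met a coding gene's window and 51 a long noncoding RNA gene's. The share was 0.522% among 80435 distal CD regions without Rxra that had no DMSO partner, called CD-only regions below, and 7.56% among 2355 stable distal regions with a Flag-Rxra peak. Intervals here and below cover counting error only.

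In 6 regions the CD call held the whole window of a coding gene, at starts that lie inside the gene as annotated. The genes were Casp8, an initiator of apoptosis, Dnmt3l, a cofactor of de novo DNA methylation, Mier2, Parp11, a mono-ADP-ribosyltransferase, Sp110, an interferon-induced nuclear body protein, and Zfp583, a zinc finger protein. In 3 of these, Dnmt3l, Parp11 and Sp110, the DMSO partner also held the start, and in none did it hold the whole window. Their upstream sequences are shown because the CD call holds the whole window and the DMSO call reaches the start. At 5 more coding genes, Apbb1, Eva1c, Mkrn1, Pxdn and Tcf12, both calls reached the start, but the CD call did not hold the whole window. They were read from RefSeq (GRCm38.p6), run 5′ to 3′ along the gene, and end at the base before the start. Capitals mark TEAD letters (GGAATG) or RUNX letters (TGTGGT), searched on both strands.

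Dnmt3l, chr10:78055085-78055334, plus strand: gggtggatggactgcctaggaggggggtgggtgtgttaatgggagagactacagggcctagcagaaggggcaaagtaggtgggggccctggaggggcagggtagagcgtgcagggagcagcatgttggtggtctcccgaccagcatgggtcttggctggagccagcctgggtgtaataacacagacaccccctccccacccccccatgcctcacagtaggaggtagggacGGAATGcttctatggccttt
Parp11, chr6:127453377-127453626, plus strand: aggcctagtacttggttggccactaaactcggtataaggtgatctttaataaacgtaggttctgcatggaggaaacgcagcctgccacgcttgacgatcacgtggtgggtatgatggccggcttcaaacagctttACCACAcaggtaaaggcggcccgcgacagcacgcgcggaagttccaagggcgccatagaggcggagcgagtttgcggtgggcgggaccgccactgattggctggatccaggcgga
Sp110, chr1:85603892-85604141, minus strand: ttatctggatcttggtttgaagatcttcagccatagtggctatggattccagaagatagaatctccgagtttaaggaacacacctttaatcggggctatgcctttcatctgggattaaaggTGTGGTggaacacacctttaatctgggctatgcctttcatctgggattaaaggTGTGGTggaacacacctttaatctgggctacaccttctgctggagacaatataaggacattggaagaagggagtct

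The Dnmt3l region spanned 78054701 to 78055430 of chromosome 10 and had a fold enrichment of 2.88 and a −log10 q of 1.20 in CD. Its DMSO partner, 78055323 to 78055539, had a fold of 3.75 and a −log10 q of 2.73. Fold is the enrichment over the peak caller's background and −log10 q its significance, both as the authors deposited them, and each ranks regions only within its own list. The Parp11 region, 127453289 to 127453850 of chromosome 6, had a fold of 3.34 and a −log10 q of 1.76 in CD and 5.05 and 4.98 in DMSO. The Parp11 sequence held 1 RUNX match and 20 CpG dinucleotides. The Sp110 region, 85603794 to 85604346 of chromosome 1, had a fold of 2.95 and a −log10 q of 1.19 in CD and 3.12 and 1.29 in DMSO. The Sp110 sequence held 2 RUNX matches, 2 CpG dinucleotides and a GC content of 44%. Both matches lie in adjacent, nearly identical copies of a longer stretch.

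Over the 78 windows that touch a stable distal region, the RUNX letters stood in 13 (16.7%), against 14.0% of all 32851 windows over the same 250 bases. The AP-1 letters TGANTCA stood in 4 (5.13% against 6.75%), and the TEAD letters in 8 (10.3% against 12.6%). The nuclear receptor letters AGGTCA, to which Rxra pairs bind as repeats, stood in 14 (17.9% against 14.0%). The DR1 element, a direct repeat of these letters with a single base between, stood in none of the 78 and in 0.0335% of all windows. E-box letters, CATATG or CAGCTG, stood in 20 (25.6% against 16.1%), and the ETS letters CCGGAAG in 3 (3.85% against 6.91%). The 78 windows had a median of 3 CpG dinucleotides per 250 bases, against 6 over all windows, and a median GC content of 53.2% against 52.4%. A match is a run of letters and not a bound site. It can lie outside the region, since some windows share few bases with it, as the window of Gm38866 does with 4 bp. Some of the 78 windows overlap each other, as those of Zfp558 do, and each was counted. Of the 74 regions, 51 met a long noncoding RNA gene's window, and the set of all windows was not matched for this.

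The stable distal regions were mostly short and weak calls. Their median width was 370 bp (interquartile range 223 to 589, widest 3660), their median fold was 3.21 (2.99 to 3.52) and their median −log10 q was 1.53 (1.27 to 1.97). The DMSO partners had a median width of 411 bp, a median fold of 3.17 and a median −log10 q of 1.63. The members were wider than the lists as a whole and close to them in fold. The medians of the whole lists were 270 bp, 3.14 and 1.39 in CD and 317 bp, 3.11 and 1.5 in DMSO. A −log10 q of 2 or more was reached by 2279 regions (23.6%), and of 5 or more by 207 (2.15%). The corresponding shares were 11.6% and 0.112% of the CD-only regions, and 39.2% and 14.3% of the stable distal regions with Rxra. Strength and overlap with the other list go together, so these shares only describe what the rule chose.

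Both calls of a pair were seldom strong. A −log10 q of 2 or more in both lists was found for 1090 pairs (11.3%), in CD alone for 1189, in DMSO alone for 1738 and in neither for 5625 (58.3%). Both calls reached 5 in 118 pairs and 10 in 40. The rank correlation across regions between the 2 lists was 0.241 for −log10 q and 0.387 for fold. Among the 9301 pairs below 5 in both lists it was 0.176 for −log10 q. Regions are not independent replicates, and these correlations are descriptions.

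**Figure D1:**
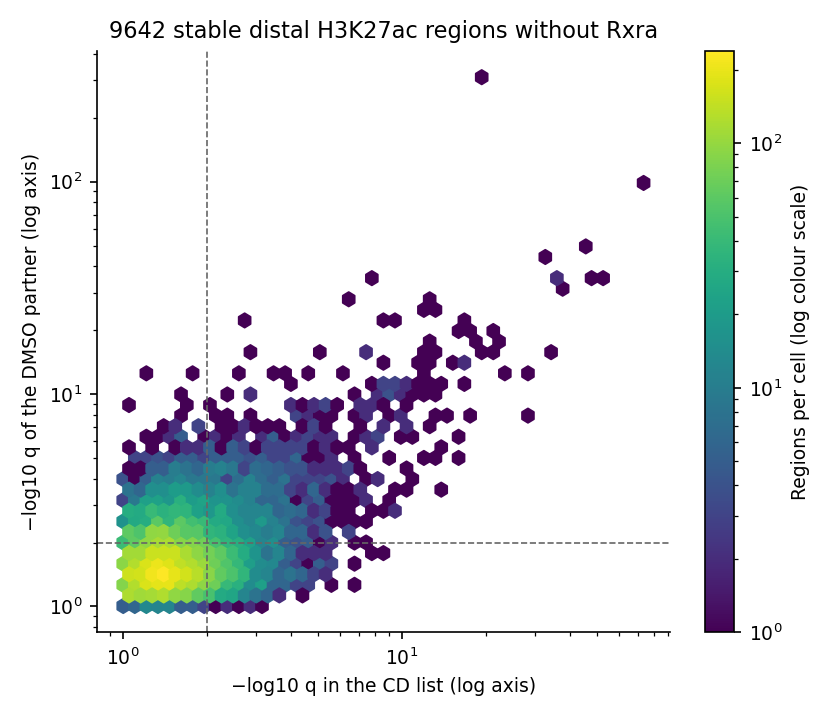
Each cell counts stable distal regions by their −log10 q in CD (x axis) and that of their DMSO partner (y axis), both on log axes. Brighter cells hold more regions, on a log colour scale. Most pairs lie at the weak end of both axes, where 5625 of 9642 are below 2 in both lists.

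The pairs often overlapped only in part. The median overlap was 196 bp, or 63.1% of the CD region, and the centres of the pair lay a median of 151 bp apart. The CD region lay wholly inside its partner in 2154 cases (22.3%), and the partner lay inside the CD region in 1639 (17.0%). An overlap of 50% of both regions was reached by 3595 (37.3%). At the limit of the rule, 861 regions (8.93%) shared under 50 bp and 270 shared at most 10 bp. A single partner was found for 9618 regions, 2 partners for 23 and 3 for 1.

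Some members were strong in both lists. The highest −log10 q in CD belonged to a 172 bp region inside Nkain3 on chromosome 4 (20191817 to 20191988), which codes for a protein that interacts with the sodium pump. It had a fold of 22.0 and a −log10 q of 73.4 in CD, and 21.9 and 102 in DMSO, with the same edges. A region of chromosome Y (61500892 to 61501433) had folds of 20.6 and 15.5 in CD and DMSO. A region of chromosome 12 at 74803882 to 74804530, 92687 bp from Kcnh5, which codes for a potassium channel, had folds of 16.7 and 13.5. Another of chromosome 12 at 94885408 to 94885727, 806279 bp from Flrt2, had folds of 18.97 and 18.46. These 4 were the highest by CD −log10 q, and both lists gave each of them nearly the same edges.

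Others at the top were strong by q but not by fold. At the start of the chromosome 9 assembly, a region at 3009355 to 3010086 had −log10 q values of 38.5 (CD) and 32.3 (DMSO) with folds of only 2.36 and 2.21. A nearby one at 3029447 to 3029870 had 32.5 and 41.8 with folds of 2.35 and 2.62. Another at 3004154 to 3004745 had a −log10 q of 20.1 in CD, and its DMSO partner was 4743 bp wide with a −log10 q of 310.6. The members of highest q that lie inside genes were in Nkain3, Fbxl20, a ubiquitin ligase subunit (fold 13.3 and 8.59), and Crybg1 (13.5 and 6.13). Cdk5rap2, a centrosome protein, held a region with folds of 10.7 and 9.14. Outside genes, a region 11524 bp from Anapc13 had folds of 11.99 and 10.58, and one 450839 bp from Tnc, the gene of the matrix protein tenascin C, had 9.84 and 8.75.

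Of the 10 widest members, 6 had CD folds above the upper quartile of all members, 3.52. The widest, 3660 bp on chromosome 2 (80813032 to 80816691), lay 152961 bp from Nup35, and had a CD fold of 3.23, a DMSO fold of 3.30 and a 1981 bp partner. A 3100 bp region inside Nsmce2, a SUMO ligase of the SMC5/6 complex, on chromosome 15 (59431564 to 59434663), had folds of 4.06 and 3.48 and a partner of 3061 bp. A 2737 bp region inside Ttc28 on chromosome 5 (110962242 to 110964978) had folds of 4.31 and 4.26 and lay wholly inside its partner of 2917 bp. In Foxn3, a forkhead repressor gene, a 2816 bp region met a partner of only 564 bp, with 324 bp shared. Wide members lay also in Kif27 (2818 bp) and Btbd11 (2296 bp), and outside Cdyl2 by 6686 bp (2334 bp). Over all members, the rank correlation of the CD width with the DMSO width was 0.132.

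The share of distal Rxra-free CD regions that found a DMSO partner is set by the rule and is given as a description. It was 10.7% over all 90077 such regions. It was 8.18% at a −log10 q of 1 to 1.5, 16.1% at 2 to 3, 30.4% at 3 to 5 and 66.5% at 5 to 10 (147 of 221 regions). By width it was 6.12% below 200 bp and 34.4% at 1000 bp or more.

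By chromosome, the autosomes lay between 9.52% (chromosome 14) and 12.2% (chromosome 17). Chromosome X had 60 of 1081 (5.55%, interval 4.26 to 7.09), below the interval of every autosome. The DMSO list held 696 regions on X, against 2013 on chromosome 19, the autosome with the fewest. Chromosome Y had 17 of 34 (50%, 32.4 to 67.6), and its DMSO list held 31 regions. No test was made between chromosomes.

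**Figure D2:**
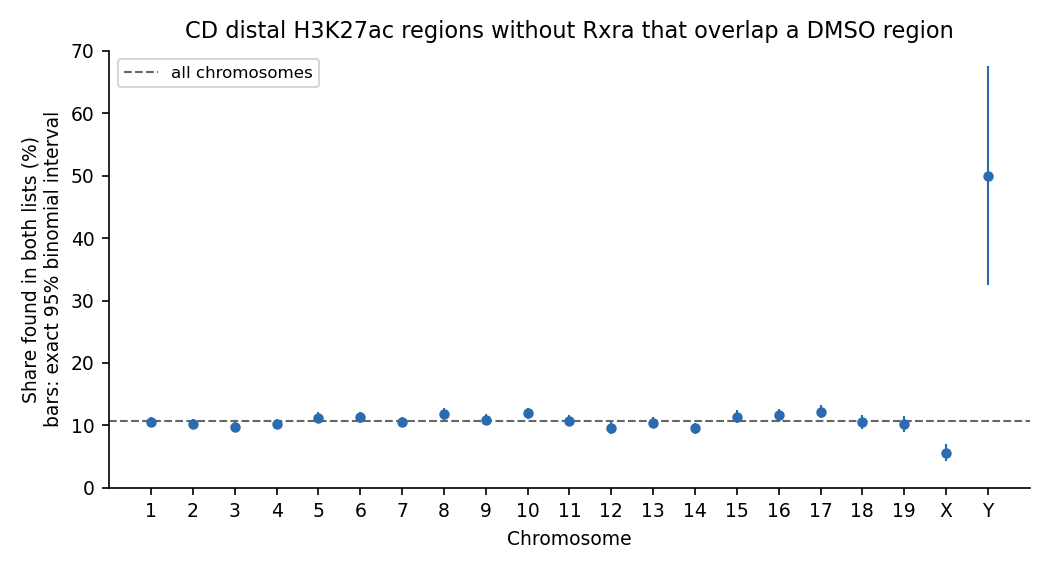
Points give, for each chromosome (x axis), the percent of CD distal regions without Rxra that overlap a DMSO region (y axis), with exact 95% binomial intervals as bars and the value over all chromosomes as a dashed line. The autosomes lie between 9.52% and 12.2%, X at 5.55% and Y at 50% of 34 regions.

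Inside and outside genes, the stable distal regions were placed much like the rest. Of the 9642, 5133 (53.2%, 52.2 to 54.2) overlapped the body of a protein-coding gene, against 52.8% (52.5 to 53.2) of the CD-only regions. The median distance to the nearest gene end was 23192.5 bp, against 25358 bp for CD-only regions. Within 10 kb of a gene end lay 2815 (29.2%), and 1614 (16.7%) lay over 100 kb away. At the limit of the rule, 58 members lay 1001 to 1100 bp from a gene end, and 55 stable Rxra-free regions lay 901 to 1000 bp away. Just outside the limit, a member of chromosome 6 (47454734 to 47455842) lay 1002 bp from an end of Cul1, a scaffold of ubiquitin ligases, with folds of 3.31 and 3.51 in CD and DMSO. Just inside it, a region of chromosome 2 (153405006 to 153405321) lay 999 bp from an end of Asxl1, a Polycomb-associated gene, with folds of 3.14 and 3.03.

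The members had no Flag-Rxra peak by rule, yet such peaks were often close. The median distance to the nearest one was 7540 bp. Within 1 kb lay 1287 members (13.3%, 12.7 to 14.0), against 7.16% (6.98 to 7.34) of the CD-only regions, which also have no such peak. Within 10 kb the shares were 58.1% (57.1 to 59.1) and 48.5% (48.2 to 48.9). Among regions 300 to 600 bp wide, 3505 members and 23755 CD-only regions, the shares within 1 kb were 14.2% and 7.83%, and within 10 kb 58.0% and 51.7%. The intervals of the 2 kinds of region did not overlap at either distance. Regions near each other share a nearest peak and are not independent, so these intervals are too narrow. A peak lay within 100 bp of 174 members, which are those nearest to failing the rule.

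**Figure D3:**
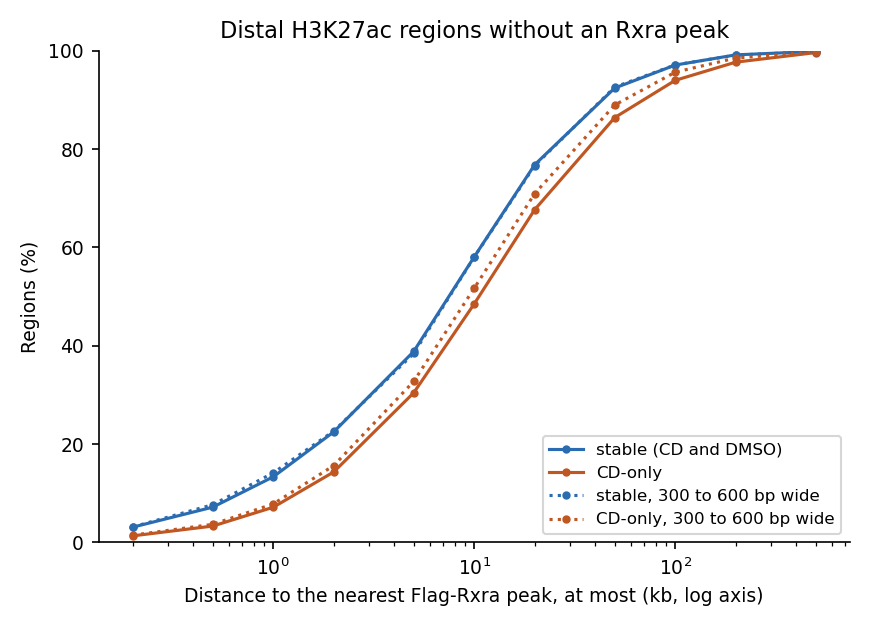
Lines give the percent of regions (y axis) that lie within a given distance of a Flag-Rxra peak (x axis, kb, log axis), for stable distal and CD-only regions, over all widths and in the 300 to 600 bp band. The stable regions lie higher from 0.2 kb on, with 13.3% against 7.16% at 1 kb over all widths.

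Most members stood apart from other members, where other CD regions were not counted as neighbours. With members joined across gaps of at most 10 kb, 8170 (84.7%) had no neighbour, 610 groups had 2 members and 77 groups had 3 or more, with 252 members in all (2.61%). Joined in the same way, 3.10% of the 2355 stable distal regions with Rxra were in groups of 3 or more. Of the far more numerous CD-only regions, 80435 in all, 36.2% were. The part of their number in these shares was not tested. The biggest groups of stable distal regions had 7 members. One spanned 20.4 kb of chromosome 6 (47756783 to 47777222), within 20 kb of Pdia4, which codes for a protein-folding enzyme of the endoplasmic reticulum. Its −log10 q ran from 1.42 to 5.11 in CD and from 1.56 to 7.31 in DMSO. The other lay on chromosome Y (90760705 to 90783522, 22.8 kb), near the end of the assembly and Gm52481, with 1.28 to 9.42 in CD and 1.36 to 21.9 in DMSO.

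A further 4 groups had 5 members each. One lay inside Sfi1, a centriole gene, on chromosome 11 (3159473 to 3173682), with a CD −log10 q of 1.40 to 4.82. One on chromosome 3 (3001763 to 3022535) had no coding gene within 20 kb and began near the start of the assembly. One on chromosome 7 (64467681 to 64490252) lay within 20 kb of Apba2, a neuronal adaptor gene, and ran from 1.91 to 6.36 in CD and 1.60 to 4.42 in DMSO. One on chromosome 8 (20588245 to 20605717) lay near Gm21119.

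**Figure D4:**
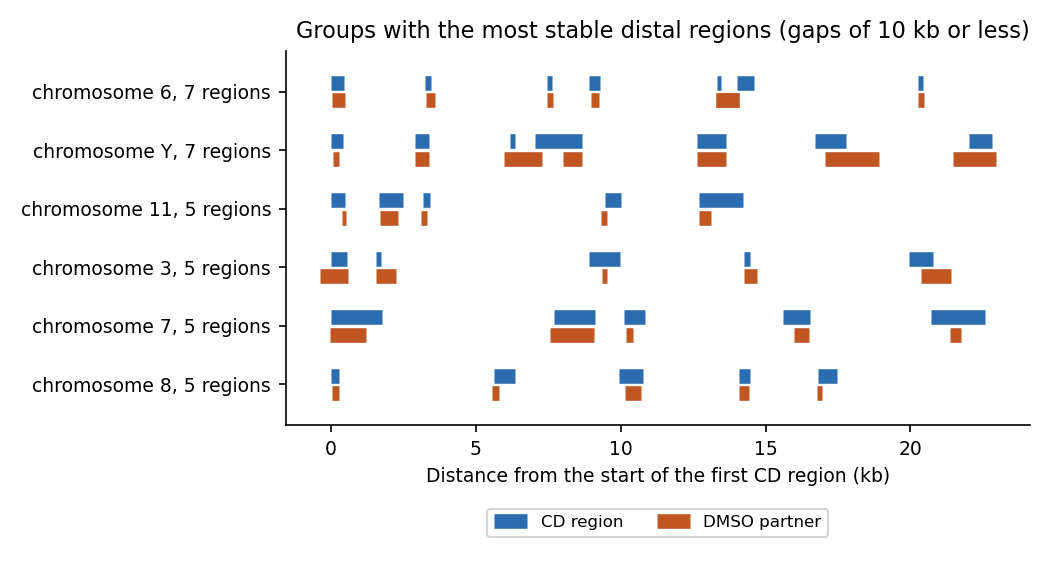
Bars show, for the 6 groups with 5 or more members, where the CD regions (upper bars) and their DMSO partners (lower bars) lie, as the distance in kb from the start of the first CD region (x axis). In several places a wide bar of one list meets a short bar of the other.

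Genes near members were counted next, taking a gene and 50 kb on each side. Of 21887 protein-coding genes, 9714 (44.4%) had 1 or more stable distal regions, 1627 (7.43%) had 3 or more and 3352 (15.3%) had one inside the gene. Long genes had them more often, from 32.0% of genes under 10 kb to 62.2% of genes over 100 kb. The 20 genes with the most members were led by Rbms3, an RNA-binding protein gene, with 16 members of 104 distal CD regions without Rxra. Next came Pard3, a cell polarity gene (13 of 55), Ank3, an ankyrin gene (13 of 55), Babam2 (12 of 45), Cacna2d3 (12 of 59) and Sox5, which codes for a transcription factor of cartilage and neural development (12 of 51). The others were Pde4d, Runx2, Slit3, Stard13 and Camta1 with 11 each, Pde7b, Arhgap24, Rad51b, Sfi1 and Erg with 10, and Kif26b, St6galnac3, Aopep and Clec16a with 9. Of the 20, 19 were longer than 100 kb, with a median length of 510 kb.

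The share of these genes' distal regions that were stable ran from 14.9% to 47.6% over the 20 genes, against 10.98% near all coding genes. The 20 were picked for their count of stable regions, which favours high shares, so these shares only describe the choice. Sfi1, the shortest at 71.5 kb, had 10 of 21. Erg, an ETS factor known from endothelium, had 10 of 25, and Runx2 had 11 of 33. The strongest single member among the 20 genes by DMSO q stood in Sox5 (chromosome 6, 144444709 to 144444921), with a fold of 5.88 and a −log10 q of 6.58 in CD and 12.9 and 28.9 in DMSO. In Rbms3 the best member by summed rank (117092533 to 117093130 of chromosome 9) had folds of 4.12 and 4.01.

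The genes were then read by pathway and cell-type lists, beside the 44.4% of all coding genes. The list of AP-1, TEAD, RUNX and CEBP transcription factors had members most often, at 19 of 21 genes (90.5%, 69.6 to 98.8). Its median gene length was 11.1 kb against 17.2 kb over all genes. Its genes had a median of 9 distal Rxra-free CD regions, stable or not, within 50 kb, against 6 over all genes. The part of either in this share was not tested. The 21 include Srf, which is of none of these families and had 2 members. Only Atf3 and Junb had none. Of the distal Rxra-free CD regions near these genes, 42 of 238 (17.6%, 13.02 to 23.1) were stable, against 10.98% near all coding genes, and 31 of 205 (15.1%, 10.5 to 20.8) without Runx2, an interval that holds the value near all genes. H3K27ac stood within 1 kb of an end of 11 of the 21 in both lists, not necessarily the same end. Under stricter counts, 8 of the 21 had a member with 50% overlap of both regions (22.2% of all genes) and 4 had one of −log10 q of 2 or more in both lists (7.41%). Within 20 kb it was 10 of 21 (28.9%).

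Runx2, the master factor of bone formation, had 11 members, 10 of them inside the gene, from 44486864 to 44812465 of chromosome 17. Their −log10 q ran from 1.13 to 2.59 in CD and from 1.07 to 2.97 in DMSO, and 2 of the 11 reached 2 in both lists. The best by summed rank in both lists (44602246 to 44602548) had folds of 3.98 and 3.68 and lay wholly inside a 922 bp partner. Another, 44545011 to 44545681, shared only 9 bp with its partner. A Flag-Rxra peak lay 16 bp from one member and 345 bp from another. Runx1 had 6 members and Tead1, a factor of the Hippo pathway, 4. Batf3, an AP-1 family gene, had 2, with the stronger at 191050828 to 191052565 of chromosome 1 (1738 bp, folds 3.97 and 4.63, −log10 q 4.40 and 8.03), which lies closer to another gene's end, at 5002 bp.

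Signalling lists held longer genes, and members stood near 55.6% of all coding genes of 50 to 100 kb. Growth factors and receptors had members at 18 of 22 (81.8%). None of the 22 had one of −log10 q of 2 or more in both lists, which only 7.41% of all genes had. Igf1r, the IGF-1 receptor, had 5 inside the gene, and Egfr, Nrg1 and Pdgfc had 4 each, while Fgf7, Igfbp5, Igfbp7 and Pdgfrb had none. The TGF-beta and YAP list had 21 of 26 (80.8%). With 50% overlap of both regions it was 14 of 26 (53.8%), beside 22.2% of all genes and 29.1% of genes of 50 to 100 kb. Tgfbr3, a co-receptor, had 6 members, and Smad6, an inhibitory Smad, and Smad3, a signal transducer, had 4 each. Ankrd1, Bmp4, Inhba, Smad7 and Tgfb1 had none. The median gene length was 60.2 kb and 65.1 kb in these lists. Of their distal regions, 13.08% (9.60 to 17.3) and 12.98% (9.59 to 17.0) were stable, and both intervals hold the 10.98% near all genes.

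The cytoskeleton and adhesion list had 19 of 24 (79.2%) with at most 2 members a gene, and 5 of 24 with 50% overlap of both regions, near the 22.2% of all genes. Actn4, Itgb1, Tpm1 and Cald1 had 2 each, and Acta2, Cnn1, Cnn2, Flna and Myh9 had none. Its stable share was 11.16%, beside 10.98% near all genes. Extracellular matrix genes of fibroblasts had 18 of 30 (60.0%, 40.6 to 77.3), an interval that holds the background, and a stable share of 11.03%. Col5a1, a fibrillar collagen, Thbs2, a thrombospondin, and Loxl1, which crosslinks elastin, had 4 each. Col1a1, Fn1, Lox, Postn and Sparc were among the 12 with none.

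Transcription factors of mesenchymal cells had members at 15 of 30 (50%, 31.3 to 68.7), near the background, but 7 of the 30 had 3 or more. Tcf4 and Zeb2 had 8 each and Zeb1, like Zeb2 a repressor of epithelial genes, had 6. The best Zeb2 member by CD q (45111217 to 45111918 of chromosome 2) had folds of 4.07 and 3.03 and a −log10 q of 4.21 and 2.77. All 3 distal Rxra-free CD regions near Twist1, a mesodermal factor, were stable, and the middle one (33991863 to 33992755 of chromosome 12) had a −log10 q of 2.097 and 3.407. Ebf1 had a strong member at 44656012 to 44656297 of chromosome 11, with folds of 6.87 and 7.25.

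**Figure D5:**
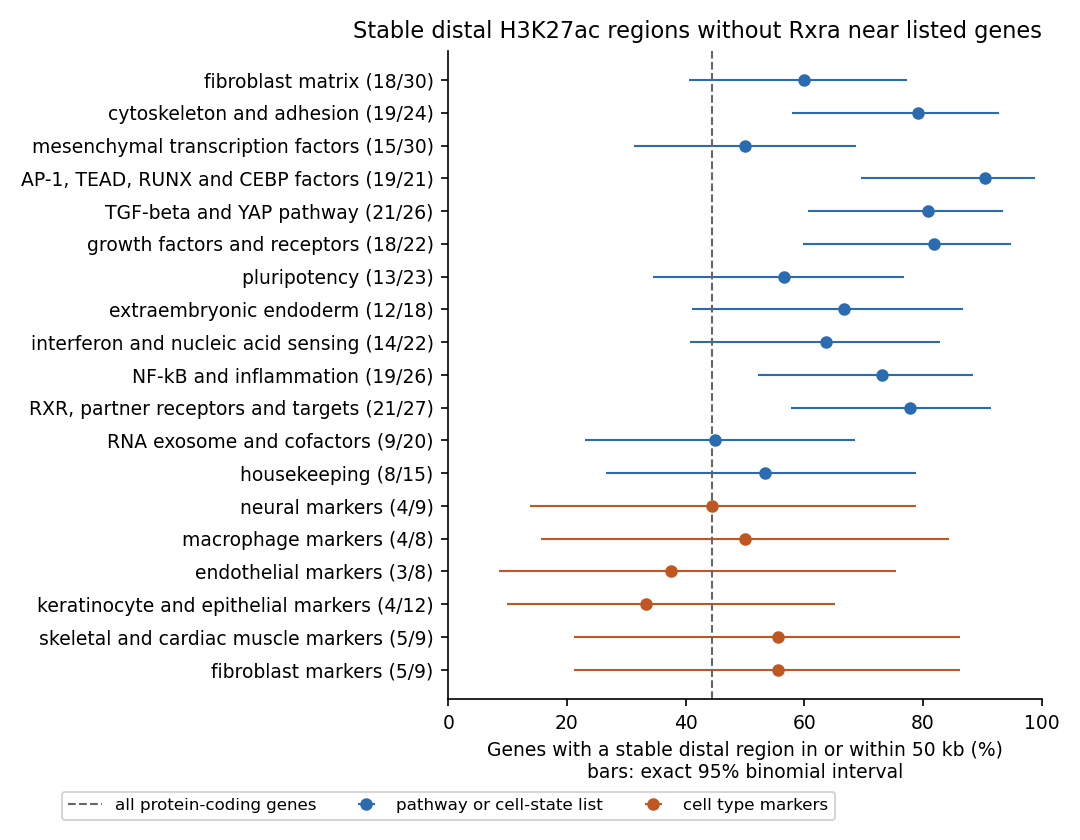
Points give the percent of each list's genes with a stable distal region in the gene or within 50 kb (x axis), with exact 95% binomial intervals as bars, counts beside the names and the 44.4% of all protein-coding genes as a dashed line. The AP-1, TEAD, RUNX and CEBP list is highest at 19 of 21, and the intervals of all 6 cell-type marker lists cross the dashed line.

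Next come the lists nearest to the themes of the title, between which no difference was tested. The list of RXR, its partner receptors and their targets had members at 21 of 27 genes (77.8%, 57.7 to 91.4). Its median gene length was 41.3 kb. A member with 50% overlap of both regions stood near 12 of the 27 (44.4% against 22.2% of all genes). One of −log10 q of 2 or more in both lists stood near 1 of the 27 (3.70% against 7.41%). Its stable share was 12.3% (8.95 to 16.3), an interval that holds the 10.98% near all genes. Rarb, a retinoic acid receptor, had 6 of 52 distal regions, Abca1, a cholesterol exporter and LXR target, had 4 of 15, and Thrb and Cyp26b1, which degrades retinoic acid, had 3 each. Rxra itself also had 3, of 18 distal regions, and is named here outside the naming rule, after its values were seen. Nr4a1, Pdk4, Ppara, Pparg, Rara and Thra had none. The RNA exosome and its cofactors, which degrade RNA in the nucleus and cytoplasm, had 9 of 20 (45%, 23.1 to 68.5), at the background, at a median length of 12.4 kb, and a stable share of 8.07% (4.37 to 13.4). Tent4b had 3 members and Exosc3, a cap subunit, had one at 45282500 to 45283022 of chromosome 4 with a −log10 q of 3.394 and 2.998. Exosc1, Exosc2, Exosc5, Exosc6, Exosc8 and Exosc10 were among the 11 with none.

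NF-kB and inflammation genes had 19 of 26 (73.1%, 52.2 to 88.4) at a median length of 11.1 kb, and 36 of 222 nearby distal regions were stable (16.2%, 11.6 to 21.7), or 31 of 201 (15.4%, 10.7 to 21.2) without Nfkb1, an interval that holds the 10.98% near all genes. Nfkb1, a subunit of the factor itself, had 5 members, and Il1r1, the interleukin 1 receptor, and Nfkbiz had 4 each. An Il1r1 member, 37521 bp from the gene, had −log10 q values of 1.68 (CD) and 5.35 (DMSO). Csf2, Cxcl5, Il1b, Il6, Myd88, Relb and Vcam1 had none. Of the 26 genes, 9 had a member with 50% overlap of both regions (34.6% against 22.2% of all genes). Only 1 of the 26 had one of −log10 q of 2 or more in both lists (3.85% against 7.41%). Interferon and nucleic acid sensing genes had 14 of 22 (63.6%, 40.7 to 82.8) and a stable share of 17.0% (11.2 to 24.3), or 15.4% (9.66 to 22.8) without Cgas, an interval that also holds the value near all genes. Cgas, the cytosolic DNA sensor, had 4 and Ifnar2, an interferon receptor chain, 3, while Irf7 and Irf9 were among those with none.

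Pluripotency genes had 13 of 23 (56.5%, 34.5 to 76.8). None of the 23 had a member of −log10 q of 2 or more in both lists, a count reached by only 7.41% of all genes. Sox2, Klf4, Klf2, Sall4, Prdm14 and Zfp42 were among those with none. Pou5f1, the gene of the core pluripotency factor Oct4, had 4 members between 35498006 and 35509180 of chromosome 17, with CD folds of 2.38, 2.25, 2.18 and 1.97 and DMSO folds of 2.48, 2.40, 2.24 and 1.89. All 4 folds lay below the lower quartile of the members in both lists. The OG2 reporter carries Pou5f1 regulatory sequence, so reads from the transgene and from the gene itself cannot be told apart in these lists. Extraembryonic endoderm genes had 12 of 18 (66.7%, 41.0 to 86.7), with 3 members each at Lama1, Gata4 and Pdgfra. Housekeeping genes had 8 of 15 (53.3%, 26.6 to 78.7).

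The marker lists give a check of the labelled cell type. Fibroblast markers had members at 5 of 9, with 4 at Twist2 and 1 each at Fbn1, Prrx1, Col1a2 and Col3a1, and none at Col1a1, Postn, Pdgfrb and Thy1. H3K27ac stood at a gene end in neither list for Col1a1, Col1a2, Fbn1, Postn, Prrx1 and Thy1. It stood at an end in both lists, not necessarily the same end, for only 2 of the 9, Col3a1 and Twist2. The same count was 0 of 8 for macrophage, 0 of 8 for endothelial and 0 of 9 for muscle markers, 2 of 9 for neural and 2 of 12 for epithelial markers. Over all coding genes it was 4637 of 21887 (21.2%), so the fibroblast markers stood at the share of all genes. Markers of other types had members too, at 5 of 9 for muscle, 4 of 8 for macrophage, 4 of 9 for neural, 4 of 12 for epithelial and 3 of 8 for endothelial genes, the last with 10 of its 15 nearby members at Erg.

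Genes with a member nearby also carried more marks at their own ends. H3K27ac stood at an end in both lists for 26.9% (26.0 to 27.8) of the 9714 genes with a member and for 16.6% (16.0 to 17.3) of the 12173 without. The lists need not mark the same end of a gene. A Flag-Rxra peak shared by both replicates stood at an end of 42.3% (41.3 to 43.3) and 24.8% (24.1 to 25.6). Among genes with 3 or more members the values were 26.1% and 43.6%. Members were more frequent at long genes, and the part of length in these shares was not tested.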

How the data were processed

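Peaks came from 4 deposited lists of 6 CUT&Tag samples, with 1 list per H3K27ac condition and 1 per Flag-Rxra sample. The sources used here do not say how H3K27ac samples were merged, or whether replicates were separate cultures. Tools per the submitters' processing notes were MACS2 2.1.2, Bowtie2 2.2.5, fastp 0.20.1 and deepTools 3.4.3, and the build was mm10. The deposited fold of a peak is the authors' ratio over background, and each −log10 q was likewise taken as deposited by the authors. The lowest −log10 q is 1.00 for H3K27ac but 5.00 for Flag-Rxra. Without read counts in these files, sequencing depth is unknown.

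Computation used Python 3.11.15, numpy 2.4.6, pandas 2.3.3, scipy 1.17.1 and matplotlib 3.10.9. Gene positions (21887 coding genes), miRNAs and start windows were RefSeq GRCm38.p6. Computations were tested on simulated data. The members, the 19 gene lists and the tests were chosen with earlier results of these data known. Named regions were the 10 highest by CD −log10 q, the 10 best by summed rank in both lists, the 10 widest and the 5 largest groups, with ties kept, from which the text gives examples. Named genes were the 20 with the most members and, in each list, up to 4 with the most and those with none, of which some are not reported here. Shares near genes count regions within 50 kb, and a region can count for several genes. Genome sequence was not used here, so a planned motif search of the members was replaced by RefSeq start windows. No comparison was tested, since each condition had 1 list. Of the listed genes, 6 (Rigi, Mx1, Mx2, Skic2, Skic3 and Skic8) found no match by symbol. Shares carry exact (Clopper-Pearson) 95% intervals.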

Additional observations from a re-analysis of the deposited data

Results flagged for a closer look

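Outside the chromosomes analysed, the CD list held 126 regions on unplaced contigs or the mitochondrial genome. Of these, 104 (82.5%) overlapped a DMSO region, against 13.9% on chromosomes 1 to 19, X and Y, and the 104 had a median CD −log10 q of 5.35. No control list was used here, and of the 104, 67 had no Flag-Rxra peak. They entered no count in the report.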

How the results depend on the processing

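The 9642 members became 3595 when an overlap of 50% of both regions was asked and 1090 when both lists had to reach a −log10 q of 2. Under these 2 settings in turn the median width was 394 and 437.5 bp, the share inside genes 52.2% and 48.6%, the share in groups of 3 or more 0.862% and 3.39%, the share within 10 kb of a Flag-Rxra peak 54.8% and 54.5%, the share of coding genes with a member 22.2% and 7.41%, and the fibroblast matrix genes with a member 8 and 2. Gene-end windows of 2500 bp gave 56.7% within 10 kb of a Flag-Rxra peak and 39.5% of genes with a member. Coordinates from the DMSO list gave a median width of 392.5 bp. Joining within 5 kb gave 0.819% in groups, and counting genes within 20 kb gave 28.9%. Leaving out either Flag-Rxra sample gave 10121 to 10304 members, 2.99% to 3.09% in groups, 60.1% to 60.8% within 10 kb of a peak and 45.5% to 46.2% of genes. Of 3 alternatives added after seeing the data, leaving out the 439 members within 10 kb of a region of −log10 q of 100 or more gave 42.4% of genes with a member, gene-end windows of all RefSeq genes gave 42.5%, and leaving out members at a start window moved no value by more than their spread. In all, 46 recomputed values stayed within the spread and 27 did not. This spread is not one of replicates and was not on a single scale for all results. The 8946 members under 2500 bp windows counted as within it, while 52.2% inside genes under 50% overlap did not. No paired analysis was possible because no result comes from a test between groups and each H3K27ac condition has 1 list. The overlap of 1 bp and the low q limit admit weak pairs, and no list gives the depth that would say what was not detected.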

Other observations

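Of 1005 RefSeq miRNA hairpins, 4 overlapped a stable distal region. These were Mir3971 inside Slc43a2, Mir5121 inside Rpl13a, Mir5123 inside B4galt1 and Mir7038 inside Eif3b. Their regions had CD −log10 q values of 1.26, 2.33, 2.18 and 1.33 and DMSO values of 3.31, 1.43, 4.60 and 1.35, in that order, and 1 of the 4, at Mir5123, reached 2 in both lists.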
